A study of Mus musculus with 9 samples.

Results

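DNA methylation was described at the loci of 6 mouse genes that write or remove it: the DNA methyltransferases Dnmt1, Dnmt3a and Dnmt3b, and the dioxygenases Tet1, Tet2 and Tet3. Each locus was a fixed window on build mm9 around the gene, from 45.0 kb for Dnmt3b to 116 kb for Dnmt3a. Calls were summed in tiles of 100 bp, and tests used the 104 tiles that had at least 10 calls in each of the 8 samples, of 357 tiles with any call in these windows and of 279699 tiles tested in the genome. Dnmt1 had 17 tested tiles, Dnmt3a 28, Dnmt3b 8, Tet1 10, Tet2 11 and Tet3 30. The method was reduced representation bisulfite sequencing, which reads CpGs on fragments between CCGG sites, the sites cut by the enzyme MspI.

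There were 2 stages of 4 samples each. NT embryos (label NTZy14) were made by placing the nucleus of a cultured fibroblast into an enucleated C57/B6 oocyte, followed by activation with a strontium salt and cytochalasin B. The fibroblasts (label TT), the donor cell type, came from tail tips of adult males and were grown to confluence. In both stages samples 1 and 2 bore the strain label BDF1-CAST and samples 3 and 4 the label X1, and no sample carried an engineered allele in the labels. What the digits in NTZy14 or the name X1 mean, or whether samples came from separate animals or pools of embryos, is not given in the sources used here. The p-values therefore describe spread among these libraries, part of which may be technical.

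Dnmt1 copies methylation onto the new strand after replication, and Dnmt3a and Dnmt3b set new methylation. The Tet enzymes oxidise 5-methylcytosine to 5-hydroxymethylcytosine and beyond, and Tet3 is the member known for acting in the mouse zygote. Bisulfite sequencing reads 5-methylcytosine and 5-hydroxymethylcytosine alike, so a methylation level here counts both. In somatic cells such genes usually have unmethylated CpG-rich starts and methylated gene bodies, and the present data measure the DNA of these genes, not their expression.

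The promoters are shown because most tested tiles near the placed starts were little methylated, while many tiles farther away were methylated. For Dnmt3a only start 3 is printed, and its promoter read higher than those of starts 1 and 2. Each line gives the 250 bases before a RefSeq transcription start (build GRCm38.p6), 5′ to 3′ on the gene's strand. Capitals mark CpGs with at least 10 calls in every sample. The positions are those of RefSeq's build, and the same sequences were placed on the files' mm9 positions by the spacing of their CpGs.
Dnmt1 start 3: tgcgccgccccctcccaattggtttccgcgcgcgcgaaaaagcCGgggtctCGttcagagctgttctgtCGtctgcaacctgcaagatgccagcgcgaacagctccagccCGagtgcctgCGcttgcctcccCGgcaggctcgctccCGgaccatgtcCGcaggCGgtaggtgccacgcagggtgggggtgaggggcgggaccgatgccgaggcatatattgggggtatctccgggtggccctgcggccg
Dnmt3a start 3: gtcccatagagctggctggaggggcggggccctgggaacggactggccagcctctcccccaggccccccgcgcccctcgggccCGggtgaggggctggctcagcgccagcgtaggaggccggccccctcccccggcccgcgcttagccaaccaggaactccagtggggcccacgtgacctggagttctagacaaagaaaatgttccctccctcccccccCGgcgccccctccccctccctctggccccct
Dnmt3b start 1: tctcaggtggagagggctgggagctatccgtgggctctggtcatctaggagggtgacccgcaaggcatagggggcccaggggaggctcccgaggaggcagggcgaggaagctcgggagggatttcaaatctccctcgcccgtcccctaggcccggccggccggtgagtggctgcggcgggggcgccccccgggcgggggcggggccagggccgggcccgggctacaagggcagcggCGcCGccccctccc
Tet1 start 1: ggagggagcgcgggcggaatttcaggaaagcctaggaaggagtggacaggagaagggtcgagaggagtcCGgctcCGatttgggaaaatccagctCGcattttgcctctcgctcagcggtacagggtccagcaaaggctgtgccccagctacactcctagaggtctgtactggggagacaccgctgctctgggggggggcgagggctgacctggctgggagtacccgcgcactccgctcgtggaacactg
Tet3 start 1: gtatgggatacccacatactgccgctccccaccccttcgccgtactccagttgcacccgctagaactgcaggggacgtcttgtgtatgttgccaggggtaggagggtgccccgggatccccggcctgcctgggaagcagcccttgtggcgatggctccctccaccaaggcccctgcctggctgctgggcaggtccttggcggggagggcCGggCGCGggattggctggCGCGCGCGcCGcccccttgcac
The Tet2 promoter is printed with its CCGG sites in capitals instead, because none of its 51 CpGs before the start had 10 calls in every sample.
Tet2 start 1: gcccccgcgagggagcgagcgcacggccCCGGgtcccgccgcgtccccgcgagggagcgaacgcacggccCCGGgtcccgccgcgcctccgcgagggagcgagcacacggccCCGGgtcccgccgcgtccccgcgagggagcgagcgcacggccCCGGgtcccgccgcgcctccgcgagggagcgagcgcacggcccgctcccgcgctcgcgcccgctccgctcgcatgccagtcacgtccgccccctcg
This stretch of Tet2 repeats itself: shifted by 42 bases against itself it was identical at 77.9% of 208 bases, a value that 0.07% of 32851 RefSeq promoters reached. Its 4 CCGG sites lie 42 bases apart, so an MspI digest cuts it into pieces of that length. A CCGG was present in 52.8% of all RefSeq promoters, each taken from 250 bases before to 50 after the start.

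The level of a locus in a sample was the mean over its tested tiles. At 5 of the 6 loci NT embryos were less methylated than fibroblasts, with differences from −7.11 points at Tet2 to −16.3 points at Dnmt1, and at these 5 every NT embryo lay below every fibroblast sample. Dnmt3b was the exception. Over whole libraries 26.1 to 35.3% of calls were methylated in NT embryos and 38.1 to 40.9% in fibroblasts. A lower level in NT embryos was thus not particular to these loci. The test was an exact two-sided permutation of the stage labels. With 4 samples a stage there are 70 assignments, so p cannot fall below 0.0286, and it was not adjusted over the 6 loci.

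Dnmt1 stood at 18.5, 27.3, 21.9 and 29.5% in NT embryos 1 to 4, against 39.4, 39.5, 41.9 and 41.8% in fibroblasts 1 to 4. The means were 24.3% ± 5.02 in NT embryos and 40.6% ± 1.40 in fibroblasts (SD, n = 4 each; exact permutation p = 0.0286). The strains gave nearly the same change, −16.5 points for BDF1-CAST and −16.1 points for X1.

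Dnmt3a had the lowest level of the 6 loci in NT embryos, 5.78, 6.32, 8.95 and 5.84%, against 14.1, 14.1, 15.2 and 14.4% in fibroblasts. The means were 6.72% ± 1.501 in NT embryos and 14.5% ± 0.524 in fibroblasts (SD, n = 4 each; exact permutation p = 0.0286). Dnmt3b stood at 15.7, 12, 12.2 and 9.67% in NT embryos, against 12.2, 13.3, 12.4 and 13.8% in fibroblasts. The groups overlapped, with a difference of −0.54 points (exact permutation p = 0.629, n = 4 each). Of its 8 tested tiles 7 lay at the start of the gene and 1 in the body, so this level is nearly that of its start.

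Tet1 was the most methylated locus in both stages, with 55.6, 34.7, 53.9 and 56.9% in NT embryos, against 64.0, 63.1, 68.8 and 66.2% in fibroblasts. The means were 50.3% ± 10.5 in NT embryos and 65.5% ± 2.53 in fibroblasts (SD, n = 4 each; exact permutation p = 0.0286), and NT embryo 2 stood apart at the low end. Without fibroblast sample 3 or 4 the exact permutation p was 0.0571. Its window ends before the placed start of the gene, so no start tile enters this level. Tet2 stood at 34.4, 31.2, 34.5 and 31.2% in NT embryos, against 38.9, 38.4, 41.0 and 41.5% in fibroblasts (difference −7.11 points; exact permutation p = 0.0286, n = 4 each). Tet3 stood at 22.3, 29.6, 28.4 and 23.7% in NT embryos, against 37.8, 37.3, 37.5 and 37.0% in fibroblasts (difference −11.4 points; exact permutation p = 0.0286, n = 4 each). In fibroblasts the 4 Tet3 values lay within 1 point of each other. The change in BDF1-CAST and in X1 was −8.04 and −7.42 points at Dnmt3a, −18.4 and −12.1 at Tet1, −5.85 and −8.38 at Tet2, and −11.6 and −11.2 at Tet3, so its direction was shared by both strains. These values moved with the CpGs that entered and their weights. With single CpGs of at least 10 calls in every sample weighted equally, the differences were −6.22 points at Dnmt1 (exact permutation p = 0.114, n = 4 each), −8.34 at Tet1 (p = 0.371) and −1.77 at Tet3 (p = 0.2), which did not pass, and −4.87 at Dnmt3a and −9.82 at Tet2, which did. With all calls of the window summed, Dnmt3b passed (−9.67 points, exact permutation p = 0.0286, n = 4 each) and Tet2 did not (−4.28 points, p = 0.286). With at least 20 calls in every sample the differences of Tet1 (−6.73 points, exact permutation p = 0.371) and Tet3 (−3.74 points, p = 0.114) did not pass, and those of Dnmt1 and Dnmt3a, at −8.95 and −3.68 points, did. Without NT embryo 3 that of Tet2 was −12.2 points.

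In the order of fibroblast levels, Tet1 came first, then Dnmt1, Tet2, Tet3, Dnmt3a and Dnmt3b. Dnmt1 and Tet2 overlapped in fibroblasts, as their samples ran from 39.4 to 41.9% and from 38.4 to 41.5%. In NT embryos Tet3 and Dnmt1 overlapped, at 22.3 to 29.6% and 18.5 to 29.5%. The other neighbours in each order did not overlap. The order describes the tiles that were sampled.

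**Figure D1:**
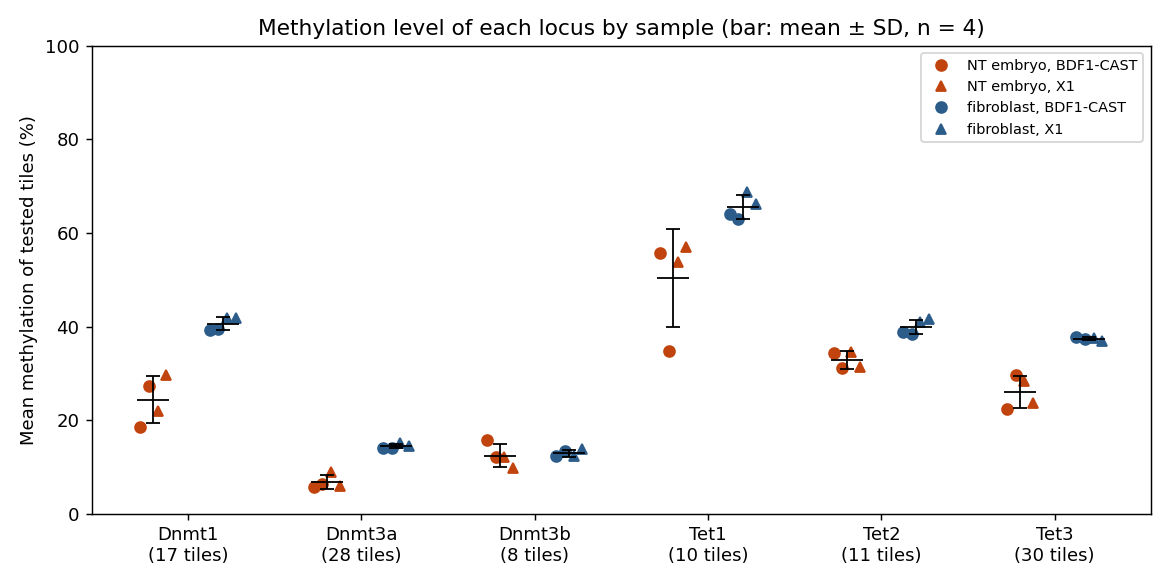
Mean methylation of the tested tiles of each locus (percent, y axis) in every sample, NT embryos left of fibroblasts, with bars at mean ± SD over 4 samples. NT embryos lie below all fibroblasts at every locus except Dnmt3b, and NT embryo 2 lies apart from the other NT embryos at Tet1.

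Tiles were grouped by their mean over all 8 samples. At these loci 64 tiles were low (under 20%), 11 middle and 29 methylated (60% or more). The low share was 61.5% at the 6 loci and 36.8% over all tested tiles of the genome. The methylated share was 27.9% at the loci and 50.7% over the genome. At least 1 RefSeq start was placed on the files' positions for each of the 6 genes, that of Tet1 outside its window, and all 47 tiles within 1000 bp of a placed start were low. They averaged 2.09% ± 1.09 in NT embryos and 2.53% ± 0.578 in fibroblasts (SD, n = 4 each). The 57 tiles farther away averaged 39.4% ± 2.60 in NT embryos and 57.8% ± 1.75 in fibroblasts, a difference of −18.4 points.

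**Figure D2:**
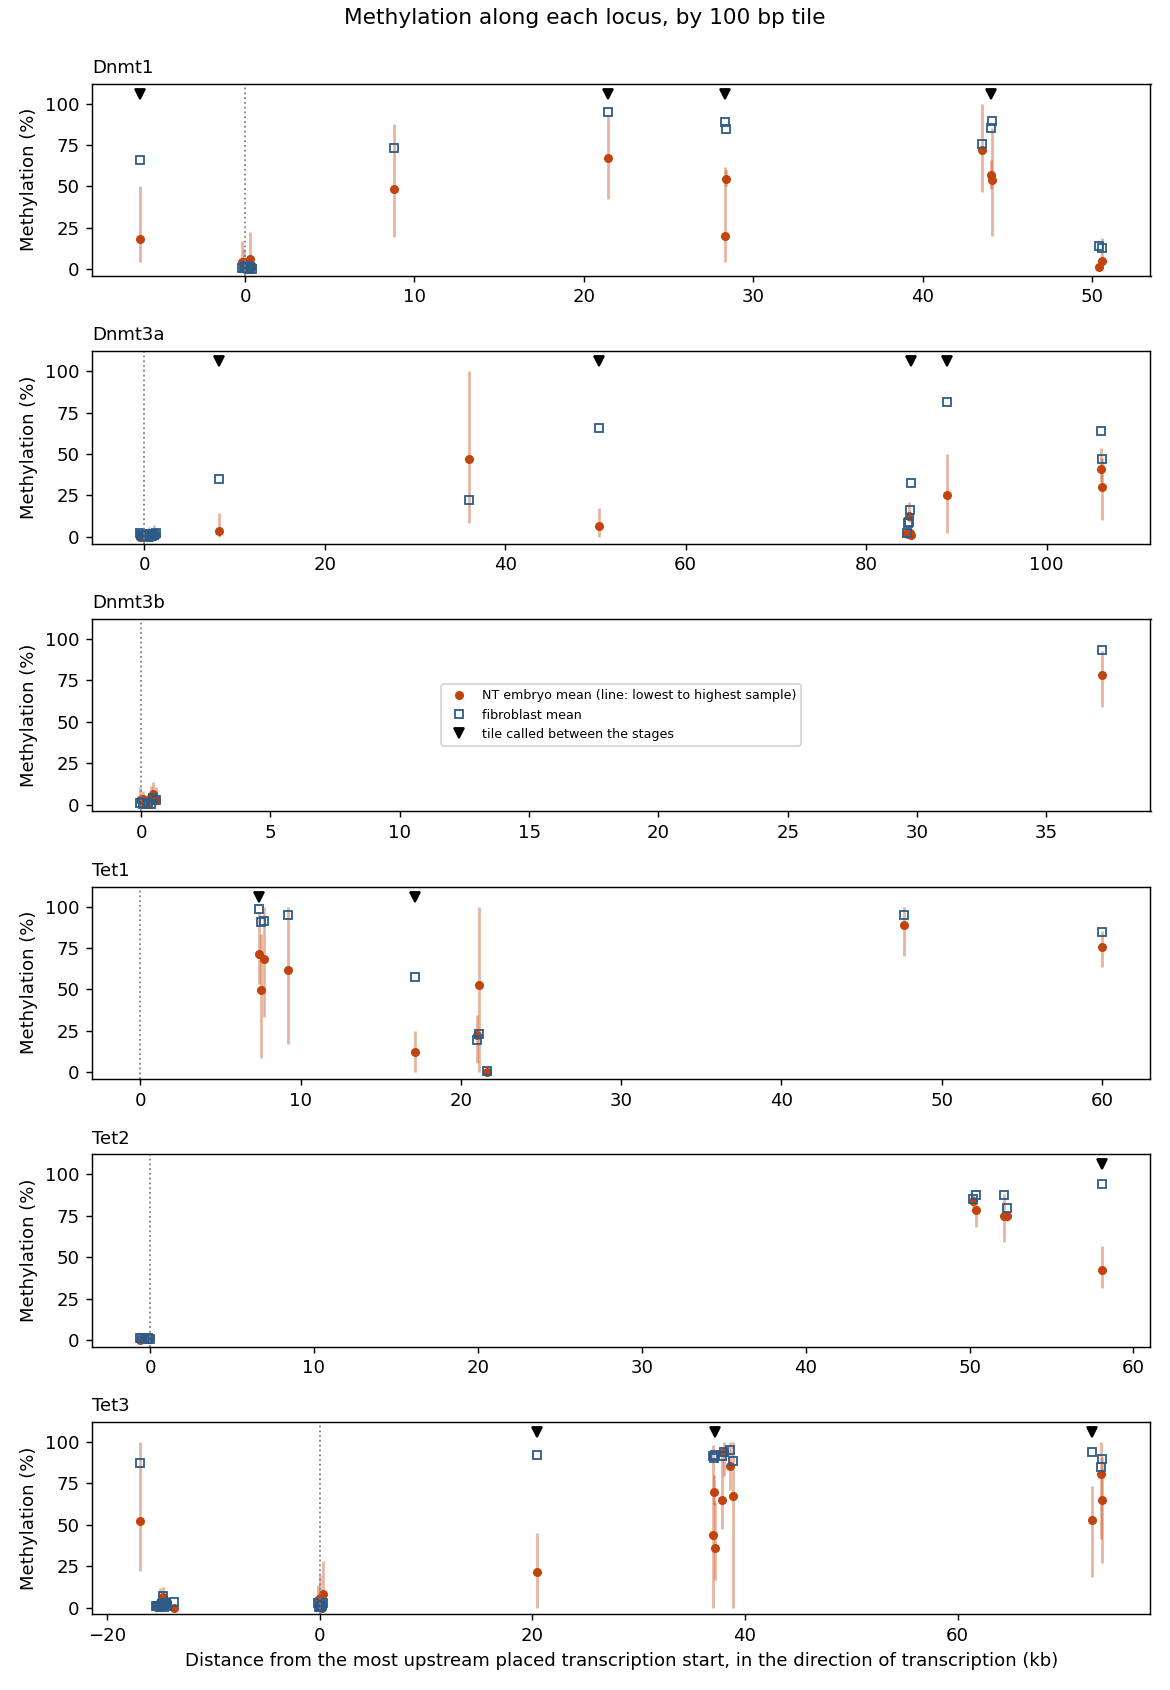
Methylation of each tested tile (percent, y axis) by its distance from the gene's most upstream placed start (kb, x axis), with circles for the NT embryo mean, lines from the lowest to the highest NT embryo and squares for the fibroblast mean. Triangles mark the 14 called tiles. Tiles at the starts lie near 0 in both stages except at the internal start of Dnmt3a, where fibroblast means reach 32.5%. The called tiles lie away from the starts except for 1 tile at that internal start.

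A tile was called where the quasi-binomial model gave an adjusted p under 0.05 over all tested tiles and the stage means differed by at least 20 points. Of the 104 tiles of these loci, 14 (13.5%) were called, all lower in NT embryos, whereas 4.57% of all tiles were called in either direction, 4.39% lower and 0.172% higher. Dnmt1 and Dnmt3a had 4 called tiles each, Tet3 had 3, Tet1 had 2, Tet2 had 1 and Dnmt3b had 0. By class, 2 of 64 low tiles (background 0.469%), 6 of 11 middle tiles (background 14.8%) and 6 of 29 methylated tiles (background 5.01%) were called. The class is a mean over both stages, so a large fall can itself place a tile in the middle class, and these counts are a description. All 29 methylated tiles had a lower mean in NT embryos, with differences from −0.157 to −56.0 points. Methylated tiles outside the loci fell as well, with a median difference of −7.86 points, against −24.9 points at the loci. The share of lower tiles outside the loci was not counted. The median difference over the 104 tiles was −0.85 points, since most of them were low, and over all tested tiles it was −2.27 points. At 19 tiles every NT embryo lay below every fibroblast sample (18.3%, background 11.9%), and at 1 tile every NT embryo lay above (background 0.874%). The number of calls depended on single samples. Without NT embryo 1, 2, 3 or 4 it was 6 of 110, 8 of 109, 18 of 114 or 13 of 121. Of all tiles 2.36, 2.32, 5.43 and 4.94% were then called. Without fibroblast sample 1, 2, 3 or 4 it was 0 of 104, 1 of 104, 6 of 104 or 3 of 105, and of all tiles 0, 0.513, 1.17 and 1.23%. The omission of fibroblast sample 1 thus left no call in the genome, with 32 tiles of the loci at an unadjusted p under 0.05. With at least 20 calls in every sample 5 of 71 tiles were called (3.18% of all tiles). With limma on arcsine square root levels it was 9 of 104 (2.53% of all tiles).

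Dnmt1, the maintenance methyltransferase, had 9 low tiles, 7 of them around the placed start and 2 past the annotated 3′ end of the gene. The 4 called tiles were spread over the locus. At chr9:20728700-20728799, 28316 bases past the placed start, the single CpG was methylated in 1 of 19, 16 of 26, 2 of 21 and 1 of 22 calls in NT embryos 1 to 4, against 79 of 85, 15 of 16, 13 of 15 and 13 of 16 calls in fibroblasts 1 to 4. In percent that is 5.26, 61.5, 9.52 and 4.55% in NT embryos and 92.9, 93.8, 86.7 and 81.2% in fibroblasts. NT embryos 1, 3 and 4 were nearly unmethylated at this CpG and NT embryo 2 was mostly methylated, with no overlap between the stages (difference −68.4 points, adjusted p = 0.0224). The neighbouring tile, chr9:20728600-20728699, read 54.2, 54.5, 50 and 60% in NT embryos, against 75.5, 70.8, 100 and 91.7% in fibroblasts, and was not called (adjusted p = 0.0819).

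A second called tile of Dnmt1, chr9:20763200-20763299, lay upstream of the placed start, at −6184 bases. RefSeq lists a further start 7265 bases upstream of the placed one, which had 2 CpGs in its promoter and could not be placed. Mouse Dnmt1 is known to have an oocyte-specific first exon upstream of the somatic one, and whether this tile belongs to it was not tested. The tile read 4.55, 5.41, 50 and 12.5% in NT embryos, against 62.2, 55.2, 63.9 and 82.8% in fibroblasts. NT embryo 3 was the highest of its stage, and the stages did not overlap (difference −47.9 points, adjusted p = 0.0274). The other called tiles lay 21416 and 44016 bases into the gene. At chr9:20735600-20735699 the levels were 42.4, 65.0, 68.0 and 92.9% in NT embryos, against 92.5, 96.9, 92.4 and 96.9% in fibroblasts, so NT embryo 4 reached the fibroblast range (adjusted p = 0.0165). At chr9:20713000-20713099 they were 66.2, 48.2, 52.5 and 59.5% in NT embryos, against 86.7, 74.7, 94.0 and 84.8% in fibroblasts, without overlap (adjusted p = 0.0433).

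The promoter of Dnmt1 start 3 had 9 CpGs with enough calls. It read 0.247, 10.0, 14.1 and 0% in NT embryos, against 0.656, 0.694, 0 and 0.427% in fibroblasts. NT embryos 2 and 3 were the higher ones, and the difference of 5.64 points did not pass the exact permutation test (p = 0.4, n = 4 each). The tile with the largest positive difference at this locus, chr9:20756700-20756799, read 22.2% in NT embryo 2 and at most 1.41% in the other NT embryos, against 0.932 to 1.72% in fibroblasts (adjusted p = 0.480).

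Dnmt3a, a de novo methyltransferase, had 23 low tiles, 5 middle tiles and none at 60% or more in the mean over all 8 samples. In fibroblasts alone the tiles that begin at chr12:3857300, 3895900 and 3913000 averaged 65.9, 81.5 and 63.9%. Their means in NT embryos were 6.43, 25.1 and 40.9%. The CpG-rich run of 17 tiles from chr12:3806500 to 3808299, which covers 2 placed starts, stayed at or under 7.14% in each of the 8 samples. The promoters of these starts averaged 0.227% and 0.189% in NT embryos, against 1.17% and 1.22% in fibroblasts. Farther on, single CpGs stood out. The CpG at chr12:3857325 was methylated in 0 of 11, 1 of 12, 4 of 23 and 0 of 15 calls in NT embryos, against 35 of 62, 20 of 27, 10 of 17 and 23 of 31 calls in fibroblasts. Its tile was called, with a difference of −59.5 points (adjusted p = 0.0185) and no overlap. The CpG at chr12:3815296 was methylated in 0 of 18, 0 of 35, 2 of 14 and 0 of 31 calls in NT embryos, against 20 of 97, 11 of 45, 21 of 37 and 14 of 37 calls in fibroblasts (tile difference −31.3 points, adjusted p = 0.03).

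The third placed start of Dnmt3a lies inside the gene, and RefSeq puts it 22699 bases before the gene's 3′ end. An internal start of Dnmt3a is known to give the shorter protein Dnmt3a2, prominent in embryonic stem cells and germ cells. The promoter of this start, shown above, had 2 measured CpGs and read 6.52, 11.5, 22.3 and 3.85% in NT embryos, against 10.9, 10.6, 8.82 and 11.1% in fibroblasts (exact permutation p = 0.886, n = 4 each). The tile at −93 bases, chr12:3891600-3891699, read 3.57, 2.86, 0 and 0% in NT embryos, against 10.2, 10.8, 6.35 and 7.14% in fibroblasts. Its stages did not overlap, but it was not called (difference −7.01 points, adjusted p = 0.118). A larger difference lay behind the start. At chr12:3891900-3891999, 207 bases past the start, the levels were 1.64, 2.38, 0 and 0% in NT embryos, against 39.6, 31.4, 50 and 9.09% in fibroblasts (difference −31.5 points, adjusted p = 0.0235). Nearly all of this came from 1 CpG, chr12:3891965, methylated in 0 of 48, 0 of 27, 0 of 27 and 0 of 19 calls in NT embryos, against 19 of 36, 10 of 18, 14 of 28 and 1 of 16 calls in fibroblasts. Fibroblast sample 4 was the low one of its stage. It was the only called tile within 1000 bp of a placed start at the 6 loci. The tile before it, chr12:3891800-3891899, read 0, 3.85, 0 and 5.71% in NT embryos, against 24.2, 21.6, 8.57 and 10.0% in fibroblasts, without overlap but not called (adjusted p = 0.0614). At chr12:3895900-3895999, 4207 bases past this start, the levels were 20.6, 27.3, 2.63 and 50% in NT embryos, against 76.5, 72.7, 89.8 and 87.1% in fibroblasts (adjusted p = 0.0147). These levels rest on unlike CpGs. NT embryo 3 had calls only at chr12:3895995, 1 of 38 methylated, and NT embryo 4 had 14 calls, at most 5 per CpG.

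The tile of Dnmt3a with the largest positive difference went the other way. At chr12:3842900-3842999 the single CpG read 41.7, 8.33, 100 and 38.5% in NT embryos, against 16.8, 11.9, 47.4 and 11.8% in fibroblasts. Sample 3 was the highest in each stage and the stages overlapped (difference 25.1 points, adjusted p = 0.404).

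Dnmt3b, the other de novo methyltransferase, had 7 low tiles from chr2:153475100 to 153475799 and 1 methylated tile near its 3′ end. None was called. The methylated tile, chr2:153512300-153512399, read 92.6, 58.6, 92.6 and 69.2% in NT embryos, against 88.9, 93.7, 95.7 and 95.2% in fibroblasts (adjusted p = 0.409). NT embryos 1 and 3 lay in or near the fibroblast range and NT embryos 2 and 4 below it. Around the start the low tiles ran slightly higher in NT embryos 1 and 2, at 4.72 and 5.34% on average, than in NT embryos 3 and 4, at 0.663 and 1.16%. In fibroblasts 1 to 4 the same tiles read 1.26, 1.83, 0.472 and 2.16%. One of them, chr2:153475500-153475599, read 3.92, 11.2, 4.17 and 0% in NT embryos, against 0.228, 0.329, 0.280 and 0.817% in fibroblasts. Its adjusted p was 0.0330, but its difference of 4.40 points was under the 20 points that a call required. The promoter averaged 2.84% ± 3.80 in NT embryos and 0.283% ± 0.380 in fibroblasts (SD, n = 4 each; exact permutation p = 0.429). Its placement is uncertain, with 13 CpGs matched against 12 at the next best place.

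At Tet1, best known from embryonic stem cells and primordial germ cells, the promoter lies outside the window, at chr10:62350022-62350321. It read 0, 0.253, 9.20 and 0% in NT embryos, against 1.02, 0, 2.31 and 2.29% in fibroblasts (exact permutation p = 0.971, n = 4 each). Inside the window a group of tiles 7421 to 7721 bases into the gene was nearly fully methylated in fibroblasts and uneven in NT embryos. The densest, chr10:62342500-62342599, held 8 CpGs and read 8.33, 24.4, 82.9 and 83.3% in NT embryos, against 88.9, 88.3, 90.9 and 94.1% in fibroblasts. The BDF1-CAST NT embryos 1 and 2 were low and the X1 NT embryos 3 and 4 stayed near the fibroblasts. With a difference of −40.8 points it narrowly missed the call (adjusted p = 0.0503), and the product of stage and strain had an unadjusted p of 0.00322 and an adjusted p of 0.410 in the quasi-binomial model. The adjoining tile, chr10:62342600-62342699, read 76.0, 53.3, 60.9 and 95.8% in NT embryos, against 93.8, 100, 100 and 100% in fibroblasts, and was called at an adjusted p of 0.0498. The pattern over the samples was not that of its neighbour, since NT embryo 1 was at 76.0% here and at 8.33% in the tile beside it.

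The second called tile of Tet1, chr10:62332900-62332999, held 1 CpG with 12 of 48, 8 of 34, 0 of 19 and 0 of 14 methylated calls in NT embryos, against 84 of 138, 18 of 32, 32 of 54 and 33 of 61 in fibroblasts. The stages did not overlap (difference −45.5 points, adjusted p = 0.0190). The largest positive difference of any tile at the 6 loci was also in Tet1, at chr10:62328900-62328999. It read 66.7, 0, 100 and 42.9% in NT embryos, against 17.5, 19.2, 40.7 and 14.3% in fibroblasts, so the NT embryos spanned the whole range and the difference of 29.4 points did not pass (adjusted p = 0.396).

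Tet2, which is widely known from blood cells, had 6 low tiles at its start and 5 methylated tiles 50203 to 58103 bases into the gene. At the start the 3 tiles inside the repeated promoter, chr3:133207300 to 133207599, read at most 3.90% in any NT embryo and at most 2.48% in any fibroblast sample. The methylated tiles included the call with the smallest adjusted p of the 6 loci. At chr3:133149200-133149299 the levels were 41.4, 56.7, 40.0 and 31.2% in NT embryos, against 94.4, 91.4, 97.1 and 94.1% in fibroblasts. The means were 42.3% ± 10.6 in NT embryos and 94.3% ± 2.36 in fibroblasts (SD, n = 4 each; difference −51.9 points, adjusted p = 0.00625 in the quasi-binomial model). All 4 NT embryos were at an intermediate level here, and all 4 fibroblast samples were nearly fully methylated. The 3 CpGs of the tile, chr3:133149228, 133149248 and 133149259, had 4 of 10, 4 of 9 and 4 of 10 methylated calls in NT embryo 1, against 34 of 37, 34 of 35 and 33 of 35 in fibroblast sample 1. The other 4 methylated tiles differed by −0.84 to −12.4 points, and none was called.

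Tet3 had 18 low tiles in 2 unmethylated runs. The first run, 6 tiles at the placed start, averaged near 0 in fibroblasts, and NT embryo 1 was the highest sample in the promoter. The promoter read 12.3, 2.97, 0 and 0.699% in NT embryos, against 0.246, 0.743, 0 and 0% in fibroblasts (exact permutation p = 0.257, n = 4 each). Its tile chr6:83391600-83391699 was the single tile at which every NT embryo lay above every fibroblast sample, with 19.6, 2.67, 0.755 and 0.680% in NT embryos, against 0.157, 0.662, 0 and 0.293% in fibroblasts (adjusted p = 0.0503). NT embryo 1 was far above the other 3 NT embryos. The other run, 12 tiles at −15379 to −13679 bases from the placed start, lies inside the annotated gene, whose 5′ end is 15530 bases before this start in RefSeq. These 12 tiles read at most 12.5% in any NT embryo and at most 14.3% in any fibroblast sample.

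The body of Tet3 held 3 called tiles. At chr6:83371200-83371299, 20421 bases past the placed start, 2 CpGs read 21.9, 20, 45.0 and 0% in NT embryos, against 88.5, 90.5, 97.0 and 91.4% in fibroblasts. This was the largest fall at any tile of the 6 loci (difference −70.1 points, adjusted p = 0.0102), and the tile levels of the stages did not overlap. Its CpGs were unlike. At chr6:83371213 NT embryos 1 to 4 had 7 of 16, 1 of 8, 9 of 11 and 0 of 9 methylated calls. At chr6:83371226 they had 0 of 16, 2 of 7, 0 of 9 and 0 of 9. NT embryo 3, at 81.8% at the first CpG, was near the lowest fibroblast sample, at 85.7%. At chr6:83354400-83354499 the levels were 16.7, 63.6, 25.0 and 38.5% in NT embryos, against 91.3, 95.7, 87.0 and 94.0% in fibroblasts (adjusted p = 0.0151). At chr6:83319000-83319099 they were 18.8, 69.8, 73.3 and 50% in NT embryos, against 90.8, 94.4, 93.3 and 96.4% in fibroblasts (adjusted p = 0.0307). In this tile NT embryo 3 had 15 of 15 methylated calls at chr6:83319040 and 0 calls at chr6:83319015. The tile chr6:83354400-83354499 had 11 calls in its lowest sample. Beside the called tile at chr6:83354400, the adjoining tile chr6:83354500-83354599 read 62.9, 80.3, 61.8 and 74.3% in NT embryos, against 84.0, 93.4, 91.5 and 91.4% in fibroblasts, without overlap but not called (difference −20.2 points, adjusted p = 0.0593). The tile after it, chr6:83354600-83354699, was uneven between the NT embryos, which read 0, 66.7, 98.1 and 10.8%, against 91.4, 90.9, 87.9 and 95.9% in fibroblasts, and with that spread the tile was not called (difference −47.6 points, adjusted p = 0.131).

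**Figure D3:**
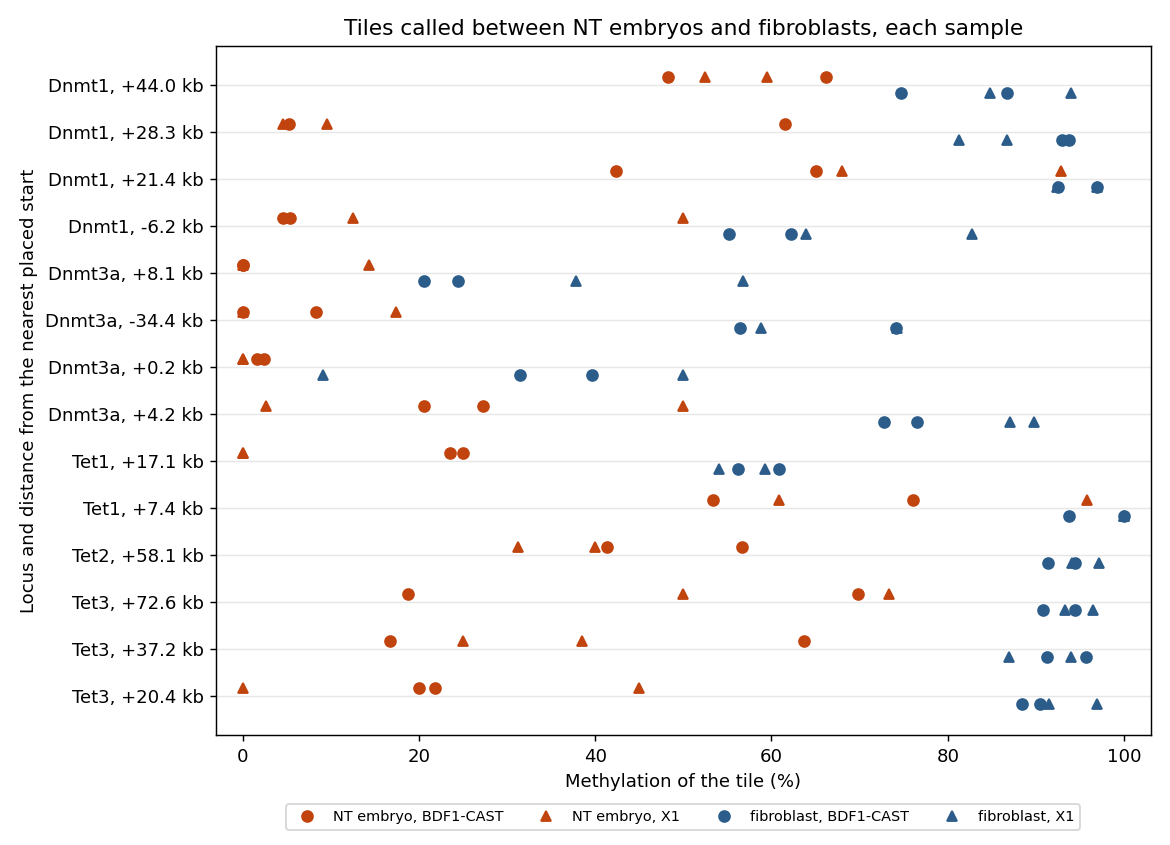
Methylation (percent, x axis) of the 14 called tiles in every sample, NT embryos above fibroblasts in each row, labelled with the locus and the distance from the nearest placed start (kb). All 14 are lower in NT embryos, which spread over a wide range, while fibroblast samples lie close together at most tiles.

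The methylated tiles of Tet1 and Tet3 changed more than those of the genome, and no such difference was found at any locus against methylated tiles in its neighbourhood. Outside the 6 loci methylated tiles averaged 74.4% in NT embryos and 83.7% in fibroblasts, a difference of −9.27 points. Each locus was set against these tiles within each sample, and the exact permutation test was run on that difference. At Tet3 the 11 methylated tiles averaged 64.7% ± 8.38 in NT embryos and 90.7% ± 0.391 in fibroblasts (SD, n = 4 each). Their change differed from that of the other tiles by −16.7 points (exact permutation p = 0.0286; −15.9 in BDF1-CAST and −17.6 in X1). The 25 methylated tiles within 500 kb on either side of the Tet3 window stood at 57.1% ± 5.08 in NT embryos and 85.4% ± 1.86 in fibroblasts, a difference of −28.2 points, and against them the difference of Tet3 was 2.22 points (exact permutation p = 0.314, n = 4 each). Restricting both sides to tiles at 80% or more gave 0.454 points (exact permutation p = 0.943). That limit was set on the mean over all 8 samples, so it removes tiles with a large fall and cannot decide the question. Without any 1 of the fibroblast samples p was 0.0571 in the exact permutation test.

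At Tet1 the 6 methylated tiles averaged 69.3% ± 12.3 in NT embryos and 92.4% ± 1.40 in fibroblasts (SD, n = 4 each), and their change differed from that of the other tiles by −13.9 points (exact permutation p = 0.0286; −17.5 in BDF1-CAST and −10.2 in X1). Without NT embryo 2 the value was −8.04 points (exact permutation p = 0.0571), and without fibroblast sample 1, 2, 3 or 4 it was −14.3, −14.2, −14.9 or −14.2 points and did not pass. The 43 methylated tiles within 500 kb of Tet1 stood at 63.8% ± 7.32 in NT embryos and 82.8% ± 2.41 in fibroblasts, and against them Tet1 differed by −4.13 points (exact permutation p = 0.457, n = 4 each). At Dnmt1 the 6 methylated tiles averaged 58.6% ± 15.2 in NT embryos and 83.8% ± 5.35 in fibroblasts, and the difference from the other tiles of the genome was −15.9 points. It did not pass (exact permutation p = 0.143, n = 4 each), and NT embryo 4 stood at 80.9% while NT embryos 1 to 3 read 49.7, 56.0 and 48.0%. It passed without NT embryo 4, at −23.3 points, and without NT embryo 1 or 3, at −18.5 and −15.5 points (exact permutation p = 0.0286 in each).

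The 35 methylated tiles within 500 kb of Dnmt1 stood at 63.9% ± 7.02 in NT embryos and 84.9% ± 1.64 in fibroblasts, and against them Dnmt1 differed by −4.10 points (exact permutation p = 0.686, n = 4 each). The 5 methylated tiles of Tet2 differed from those of the genome by −6.57 points (exact permutation p = 0.0857, n = 4 each; −1.34 in BDF1-CAST and −11.8 in X1), and without NT embryo 1 by −7.79 points (exact permutation p = 0.0286). The 66 tiles around Tet2 differed least between the stages of these neighbourhoods, at 73.0% ± 2.85 in NT embryos and 83.8% ± 2.01 in fibroblasts, and against them Tet2 differed by −5.07 points (exact permutation p = 0.0857, n = 4 each). The 1 methylated tile of Dnmt3b differed from the genome by −5.80 points (exact permutation p = 0.457, n = 4 each) and from the 30 tiles around it by 2.35 points (p = 0.857). Dnmt3a had no methylated tile.

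**Figure D4:**
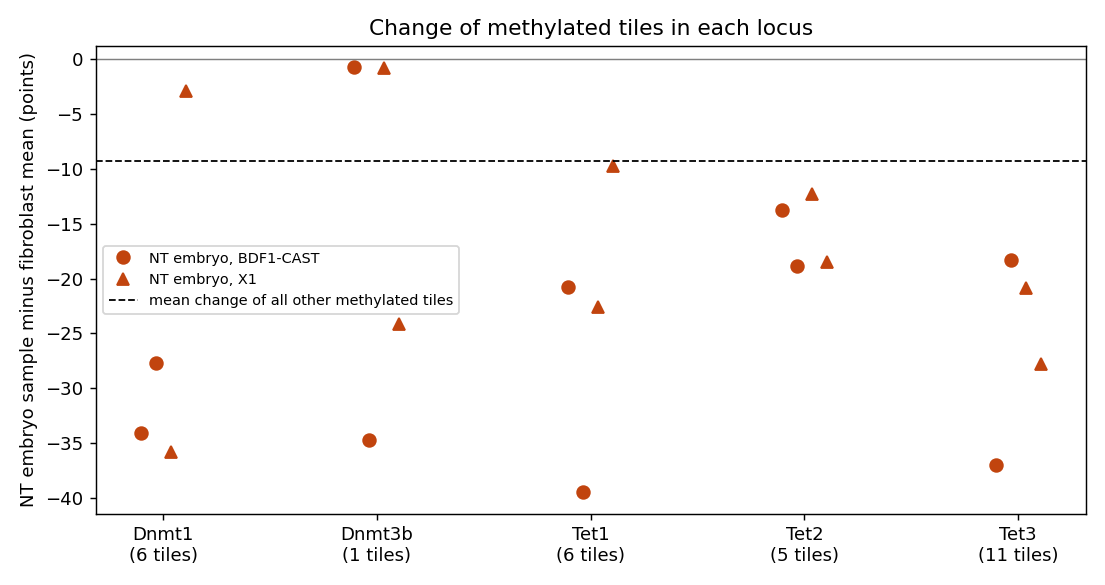
Change of the methylated tiles of each locus (points, y axis) as each NT embryo minus the fibroblast mean, with the dashed line at the mean change of −9.27 points of all other methylated tiles. All 4 NT embryos lie below the dashed line at Tet1, Tet2 and Tet3, while NT embryo 4 at Dnmt1 and NT embryos 1 and 3 at Dnmt3b lie above it.

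Spread and depth differed between the stages beside these results. The median SD of a methylated tile at the 6 loci was 19.8 points in NT embryos and 4.67 points in fibroblasts, and over other methylated tiles it was 9.56 points in NT embryos and 5.34 points in fibroblasts. The median number of calls per tile at the loci was 49 to 69 in NT embryos and 73 to 187 in fibroblasts. Libraries held 25239364 to 30396273 calls in NT embryos and 35442175 to 41466097 calls in fibroblasts. Reads without molecular identifiers are not independent molecules, so a tile of many calls may rest on few, and the part of depth in these results was not tested.

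The strains gave no called tile at the 6 loci. With the strain term of the quasi-binomial model 18 of 104 tiles had an unadjusted p under 0.05 (background 15.8%), 0 were called (background 0.0164%) and the smallest adjusted p was 0.148. For the product of stage and strain 10 tiles had an unadjusted p under 0.05 (background 8.07%), 0 passed an adjusted p of 0.05 (background 0%) and the smallest adjusted p was 0.410. Across the 8 samples the levels of Tet3 and Dnmt3a were the most alike of any pair of loci (Pearson r = 0.955), a description only, since the same 2 stages set both.

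None of the 8 placed promoters of the 6 genes had an unadjusted p under 0.05 in the exact permutation test. Of all 7358 measured promoters 284 did (3.86%). In both stages 98.3% of those promoters were under 20%. Among the 6 genes, the level of Tet2 rests on 1 CpG and that of Dnmt3a start 3 on 2. With at least 5 calls, where more CpGs enter, the Tet2 promoter was higher in NT embryos by 1.32 points (exact permutation p = 0.0286, n = 4 each). Promoters of partner genes were compared by the same test, with at least 10 calls. A list of 35 genes for cofactors such as Uhrf1, which brings Dnmt1 to hemimethylated DNA, for readers, protectors such as Dppa3, base excision repair and other demethylation factors had 17 genes with 20 measured promoters. Uhrf1 was among the measured genes and Dppa3 was not. The 20 include overlapping promoters of the same gene with identical values. 0 of 20 passed at an unadjusted p of 0.05, 0 of 20 had stages without overlap (3.47% of all measured promoters had all NT embryos below and 0.394% all above), the differences ran from −1.22 to 4.67 points with a median of −0.03, and no stage mean was above 5.0%.

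The limit of 10 calls decided which tiles were seen. The 11 tiles just inside it, with 10 or 11 calls in their lowest sample, had a median difference of −29.8 points, and the 7 tiles just outside it, with 8 or 9 calls, had −28.7 points.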

How the data were processed

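Per the deposited description of the files, each library lists, for every CpG covered, how often it was seen and how often it was methylated, as whole counts that the authors did not normalize. Positions are on mm9, per the submitters' processing notes, and are printed as the files give them, with no statement of whether they count from 0 or 1. No source used here names the aligner, caller or filters, and counts start at 1 call. The CpG density of a tile is a score deposited by the authors in a table of 100 bp tiles. Its 26 columns of single samples or joined libraries were not used. Fibroblast libraries 1 and 1a, the second a resequencing per the deposited description, were summed, giving 8 samples from 9 libraries.

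Calls were summed per 100 bp tile, and the 279699 tiles that reached 10 calls in each of the 8 samples were fitted with a quasi-binomial model of stage and strain. Dispersions were moderated with squeezeVar of limma 3.58.1 (R 4.3.3) and kept at 1 or above, F tests were adjusted by Benjamini-Hochberg over all tiles, and the model was tested on simulated data. Every adjusted p of a tile comes from this model. Locus and promoter levels were compared by two-sided exact permutation tests. Python 3.11.15, numpy 2.4.6, pandas 2.3.3 and scipy 1.17.1 did the rest.

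No mm9 sequence was used. RefSeq promoters (GRCm38.p6, 250 bases before to 50 after a start) were placed by matching their CpG spacing to CpG positions on the same chromosome, with at least 6 matches, at least 80% of covered CpGs shared and a single best placement. Of 32619 promoters 8627 were placed, and 99.7% of these had a neighbour displaced alike within 1000 bp. The Dnmt3b promoter was placed by a search of its window alone, chosen after seeing the data. That placement matched 13 CpGs, against 12 at the next best, so its margin was narrow. Starts 1 and 2 of Dnmt1 were not placed. Distances run from the centre of a tile to a placed start. Exons and introns of the tiles are not given.

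The members, lists and tests were chosen with earlier results of these data known. Named are, per locus, every called tile, the tiles of largest fall and rise, the promoters and tiles beside them. Partner genes were to be named where stages did not overlap or a level reached 20%, which none met, and the 2 examples serve to describe the list. Alternatives covered the call minimum, library 1a, left-out samples, pairing, weighting, tile size, class limits, comparison tiles and the model.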

Additional observations from a re-analysis of the deposited data

Results flagged for a closer look

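In 8 of 66 groups of 4 samples 1 sample lay far from the other 3 by Dixon's criterion. For normally distributed values chance sets apart about 1 in 20 groups, or 3.3 of 66. Where the other 3 samples tie at 0 or 100%, any different value is set apart, and that rate does not apply. Such groups are among the 8, so 8 cannot be read as an excess over 3.3. At the locus levels, NT embryo 3 stood at 8.95% at Dnmt3a, above 5.78 to 6.32% in the other NT embryos, and NT embryo 2 stood at 34.7% at Tet1, below 53.9 to 56.9%. At the called tiles, NT embryo 2 stood at 61.5% at the Dnmt1 tile chr9:20728700-20728799, above 4.55 to 9.52%, and NT embryo 3 stood at 14.3% at the Dnmt3a tile chr12:3815200-3815299, above 0% in the others. Fibroblast sample 1 stood at 93.8% at the Tet1 tile chr10:62342600-62342699, below 100% in the others. At the promoters, NT embryo 3 stood at 9.20% at Tet1, above 0 to 0.253%, NT embryo 4 at 2.0% at Tet2 and NT embryo 1 at 0.758% at Dnmt3a start 2, each above 0% in the other NT embryos. The Tet2 value rests on 1 CpG. In 0 of 33 results did both NT embryos of 1 strain lie above the mean of that strain's fibroblast samples while both of the other strain lay below theirs. The mean change of the Dnmt3b locus level nevertheless differed in sign, at 1.09 points for BDF1-CAST and, for the X1 samples, −2.17 points, a difference that was not tested.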

How the results depend on the processing

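Directions held at the locus levels of Dnmt1, Dnmt3a, Tet1, Tet2 and Tet3 under all alternatives run. For Tet1 the difference was −6.73 points (exact permutation p = 0.371) and for Tet3 −3.74 (p = 0.114) with at least 20 calls, and with single CpGs it was −6.22 at Dnmt1, −8.34 at Tet1 and −1.77 at Tet3, none of which passed. Summed calls gave −4.28 at Tet2, which no longer passed, and −9.67 at Dnmt3b, which then passed. At Dnmt3b single CpGs turned the sign (2.03). Over tiles at 20% or more in the mean over all samples, an alternative chosen after seeing the data, the differences were −15.1 points at Dnmt3b to −33.4 at Dnmt1, and those of the other 5 loci than Dnmt3b passed. Leaving out 1 sample gave −7.46 to 0.0689 at Dnmt3b, where the positive value came without NT embryo 3, and −17.0 to −9.93 at Tet1, where the test missed without fibroblast sample 3 or 4. At Tet2 it gave −12.2 without NT embryo 3, and at least 20 calls gave −8.95 at Dnmt1 and −3.68 at Dnmt3a, all of which passed.

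For methylated tiles against the other methylated tiles of the genome, Tet1 missed the threshold at −10.3 points with at least 5 calls, −14.7 with 20 calls, −8.68 with tiles at 80% or more, −11.9 with tiles chosen in the fibroblasts of the other strain and −4.13 against tiles within 500 kb. Tet3 missed it at −11.3 with 20 calls, and turned sign with tiles at 80% or more (0.454) and within 500 kb (2.22). The 80% limit was on the mean over all 8 samples, which removes tiles with a large fall, so that alternative cannot decide. Dnmt3b turned sign within 500 kb (2.35). Dnmt1 passed at −21.1 with tiles at 50% or more, and Tet2 at −20.4 with 20 calls. Leaving out 1 sample gave −23.3 to −15.3 at Dnmt1, −27.8 to 0.715 at Dnmt3b, −16.8 to −8.04 at Tet1, −11.7 to −3.59 at Tet2 and −23.1 to −13.7 at Tet3. Tet1 and Tet3 missed the threshold without any 1 of the fibroblast samples, and Tet1 also without NT embryo 2.

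Among promoters, summed calls turned Dnmt3a start 3 (−1.18 points), and a minimum of 5 calls turned Tet2 (1.32 points, exact permutation p = 0.0286), where more CpGs then enter. Leaving out 1 sample gave −1.33 to −0.654 at Dnmt3a start 1, −3.08 to 3.07 at Dnmt3a start 3, −1.32 to 1.75 at Tet1 and −1.74 to 0.910 at Tet2; of these, Dnmt3a start 1 passed without fibroblast sample 3. Single samples also moved Tet3 (0.977 points without NT embryo 1), Dnmt1 start 3 (2.97 without NT embryo 3), Dnmt3b (1.38 without NT embryo 1) and Dnmt3a start 2 (−0.39 without fibroblast sample 2), none of which passed. Values turning at Tet2 were 0.910 without NT embryo 3 and 0.0434 without fibroblast sample 2.

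Called tiles between stages at the loci were 0 to 18 with 1 sample left out (0 to 5.43% of all tiles). They were 5 of 71 with at least 20 calls (3.18% of all tiles) and 18 of 130 with at least 5 (5.65%). With limma they were 9 of 104 (2.53%), and with tiles of 1000 bp 18 of 54 (14.5%). At the loci 0 were called between strains and 0 for stage by strain under each alternative. The cause was not tested.

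Same-numbered samples did not pair: their deviations from the stage means correlated at 0.111, 0.127, 0.196 and 0.0427, and not every sample correlated best with its own number. With the replicate block the locus differences, −16.3, −7.73, −15.2, −7.11 and −11.4 points at Dnmt1, Dnmt3a, Tet1, Tet2 and Tet3, and the methylated-tile differences, −13.9 at Tet1 and −16.7 at Tet3, had an exact sign-flip permutation p = 0.125, the smallest that 4 pairs allow. The block in place of strain left 0 calls, and 32 tiles had an unadjusted p below 0.05. NT embryos had fewer calls per tile, which limits their precision, and intervals of calls would cover counting error only.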
